A study of Mus musculus with 4 samples.

Results

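Mouse myeloma cells from a lymph node were compared with myeloma cells of the same model from bone marrow, by single-cell RNA sequencing of cells sorted as CD138+ B220-. The cells were chosen by 2 limits on the deposited counts: at least 1000 UMIs (unique molecular identifiers, each standing for 1 captured transcript) and Jchain under 5% of them. Jchain encodes the joining chain of polymeric antibodies. These limits kept 513 cells, of 618 in the 3 VQ libraries and 781 in the series. They left out 41 of 245 and 50 of 188 cells of the bone marrow libraries (VQ_BM 1 and 2) and 14 of 185 cells of the single lymph node library (VQ_LN). The cells were taken from recipients of donor-derived VQ-D2 myeloma on a C57/BL6 background, and every VQ library carries the genotype V{kappa}*MYC, Nras LSL Q61R/+ and IgG1-Cre. The first is a MYC transgene under kappa light chain control, which is known to become active in germinal centre B cells. The second is an activating Nras allele that stays silent until Cre removes a stop cassette, and IgG1-Cre is made by B cells that transcribe the IgG1 constant region. All 3 libraries thus share both oncogenes, and by their labels the marrow and node libraries differ in tissue. Library and depth differ along with it. Each VQ library is of D2, so the values describe that donor's myeloma; whether the marrow and the node came from the same animal, or the 2 marrow libraries from different animals, is not given in the sources used here. A wild-type C57/BL6 bone marrow library served as a reference for normal plasma cells, through its 87 cells with at least 1000 UMIs and Jchain at or over 5%, which held 193191 UMIs, and entered the test in 1 alternative alone.

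The kept cells held 1030101 and 428610 UMIs in VQ_BM 1 and 2 and 794087 in VQ_LN, with medians of 4968, 3062 and 4205 UMIs per cell. The highest Jchain share among the kept cells was 4.54% and 1.63% in bone marrow and 1.75% in the lymph node. The lowest share among the cells left out was 10.5% and 11.4% in bone marrow, and no lymph node cell was left out for Jchain. The lowest UMI totals kept were 1005, 1000 and 1049, and the highest left out were 988, 966 and 947. No cell barcode was shared between libraries. The labels were checked first. Myc stood at 1274 and 1485 CPM (counts per 1000000 UMIs, with TMM scaling between the VQ libraries) in bone marrow and 1422 CPM in the lymph node, against 31.1 CPM in the wild-type reference. Sdc1, which encodes the sorted surface protein CD138, stood at 718, 654 and 593 CPM, and Nras at 296, 330 and 340 CPM. Neither these genes nor Ptprc was called between the tissues.

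Interferon-gamma acts through a receptor and its kinases and induces, among others, the transcription factor IRF1. Its target genes are known for GAS and ISRE elements in their promoters, and IRF-family factors bind the latter. Among the best known targets in the mouse are 2 families of large GTPases, the guanylate-binding proteins (GBPs) and the immunity-related GTPases (IRGs), which attack the vacuoles of intracellular pathogens, and the genes of MHC class I antigen presentation. Plasma cells, for their part, are known for an enlarged endoplasmic reticulum (ER) that folds antibody. MZB1 is an ER co-chaperone of marginal zone B cells and plasma cells that assists antibody assembly. Interleukin 10 and arginase 1 both restrain T cells, the first as a secreted cytokine and the second by consuming arginine.

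The stretches below are shown because most GBP and IRG genes were higher in the lymph node cells and their promoters could be read side by side. Each is 50 bases upstream of the annotated start, 5′ to 3′ on the gene's strand, from RefSeq for build GRCm38.p6. Capitals mark an ISRE-type match (GAAA, any 2 bases, then GAAA, searched on both strands and so shown as TTTC, 2 bases and TTTC where it lies on the other strand) or a GAS-type match (TTCNNNGAA, the same on both strands).
Gbp2, chr3:142620592-142620641, plus strand: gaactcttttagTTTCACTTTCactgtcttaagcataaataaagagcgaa
Gbp3, chr3:142559987-142560036, plus strand: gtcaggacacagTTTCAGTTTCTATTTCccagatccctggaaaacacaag
Gbp5, chr3:142496757-142496806, plus strand: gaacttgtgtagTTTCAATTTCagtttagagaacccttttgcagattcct
Gbp7, chr3:142530271-142530320, plus strand: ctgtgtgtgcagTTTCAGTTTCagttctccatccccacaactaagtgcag
Igtp, chr11:58199499-58199548, plus strand: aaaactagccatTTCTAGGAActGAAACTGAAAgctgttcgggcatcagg
Irgm2, chr11:58214890-58214939, plus strand: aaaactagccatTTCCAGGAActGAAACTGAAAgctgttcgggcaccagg
Tgtp1, chr11:48992297-48992346, minus strand: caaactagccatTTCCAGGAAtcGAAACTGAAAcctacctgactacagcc
Tgtp2, chr11:49064256-49064305, minus strand: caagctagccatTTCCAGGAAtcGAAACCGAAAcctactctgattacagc
Irf1, chr11:53769912-53769961, plus strand: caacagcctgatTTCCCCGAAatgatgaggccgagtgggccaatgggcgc
B2m, chr2:122147536-122147585, plus strand: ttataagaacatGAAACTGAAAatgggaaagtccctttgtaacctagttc

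The 4 GBP stretches carry the ISRE-type letters on the other strand, 53 and 59 bases before the start in Gbp7 and Gbp2. Gbp3 has 2 overlapping matches, and the match of Gbp5 lies 165 bases before the start. In Igtp, Irgm2, Tgtp1 and Tgtp2 a GAS-type match begins 11 bases before an ISRE-type match. That spacing was noticed after the sequences were seen, and these are related genes with similar sequence. It occurs in 5 of the 27025 genes with a promoter window of 300 bases (250 before to 50 after the start), and these 4 genes are among the 5. ISRE-type letters were present in 3.44% of all 32851 windows and in 12 of the 15 windows of the 14 GBP and IRG genes that could be matched. Among genes called higher in the lymph node, 114 of the 144 could be matched, and 12.8% of their 149 windows held ISRE-type letters. Outside the GBP and IRG lists that share was 6.57%. GAS-type letters were present in 8.30% of all windows, 12.1% of the windows of genes called higher and 8.03% of those outside both lists. Over the windows of the genes tested, the shares were 3.07% for ISRE-type and 6.60% for GAS-type letters. For genes called lower, with 58 of 86 matched, the shares were 4.29% for ISRE-type and 7.14% for GAS-type letters. A match is a run of letters and not a measured binding site.

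The UMIs of the kept cells were summed per library and compared with edgeR's quasi-likelihood test over 8475 genes, with Benjamini-Hochberg adjustment and a threshold of 0.05. In the lymph node 144 genes were called higher (1.7% of those tested) and 86 lower (1.01%), together 2.71%, of which 96 (1.13%) and 63 (0.743%) differed by at least 2-fold. All 230 called genes had both bone marrow libraries on the same side of the lymph node library, as did 5996 of the tested genes, or 70.7%. The spread in this test comes from the bone marrow pair alone and was pooled over genes. The single lymph node library was assumed to vary like that pair. The pair's own spread was small, with a common biological coefficient of variation of 0.096. With this coefficient preset at 0.3, 25 and 17 genes were called, and DESeq2 called 19 and 8. Leaving aside the 4 genes proposed as markers, 71 called genes were named by a fixed rule, and 6 of them kept the call in every alternative that gave a test: Gbp4, Gbp5, Gbp7, Ifi47, Pet2 and Fcer1g. Of these, Gbp4 and Gbp5 passed the filter on low counts only through the lymph node library.

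**Figure D1:**
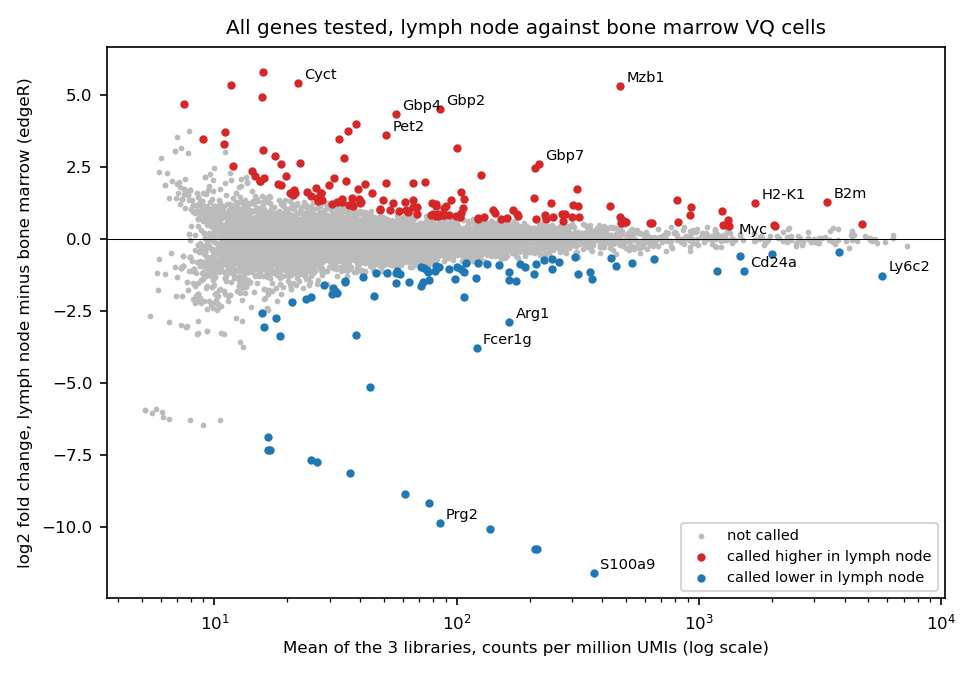
Fold change (edgeR, log2, lymph node minus bone marrow) against the mean of the 3 libraries in counts per 1000000 UMIs on a log scale, 1 point for each of the 8475 genes tested. Red points are the 144 genes called higher and blue points the 86 called lower; points below Ltf at -5.14 are genes with 0 UMIs in the lymph node library, whose fitted value depends on the prior count and is no measured fold.

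Of the 4 genes that were proposed as markers, Mzb1 had the highest ratio, with 32.9 and 37.8 CPM in the bone marrow libraries and 1389 CPM in the lymph node library. Both marrow libraries were low and the node stood far above them, while the wild-type reference stood at 4788 CPM. Its UMI rate was 40.5-fold that of the summed bone marrow (95% counting interval 30.5 to 54.9). A Mzb1 UMI was found in 6.86% and 8.70% of bone marrow cells and in 70.2% of lymph node cells (120 of 171). The 15 bone marrow cells left out for Jchain held 41 of 17667 and 5 of 2493 UMIs of Mzb1. Gbp2, of the GBP family, stood at 9.68 and 11.8 CPM in bone marrow and 242 CPM in the lymph node, a ratio of 23.5 (13.9 to 42.8). It had 0 UMIs in the wild-type reference. Il10 stood at 6.78 and 7.08 CPM against 95.6 CPM, a ratio of 13.9 (7.16 to 30.2). Its 74 UMIs in the lymph node lay in 24 of the 171 cells, and the top 3 cells held 37 of them, 22 in 1 cell. Arg1 went the other way, at 255 and 210 CPM in bone marrow and 32.3 CPM in the lymph node. The bone marrow rate was 7.48-fold that of the lymph node (4.99 to 11.7), and a UMI was found in 42.6% and 34.1% of marrow cells but 12.3% of node cells. Arg1 had 0 UMIs in the wild-type reference. These 4 genes were proposed from earlier results of the same cells, so their values are given as a description with no test.

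**Figure D2:**
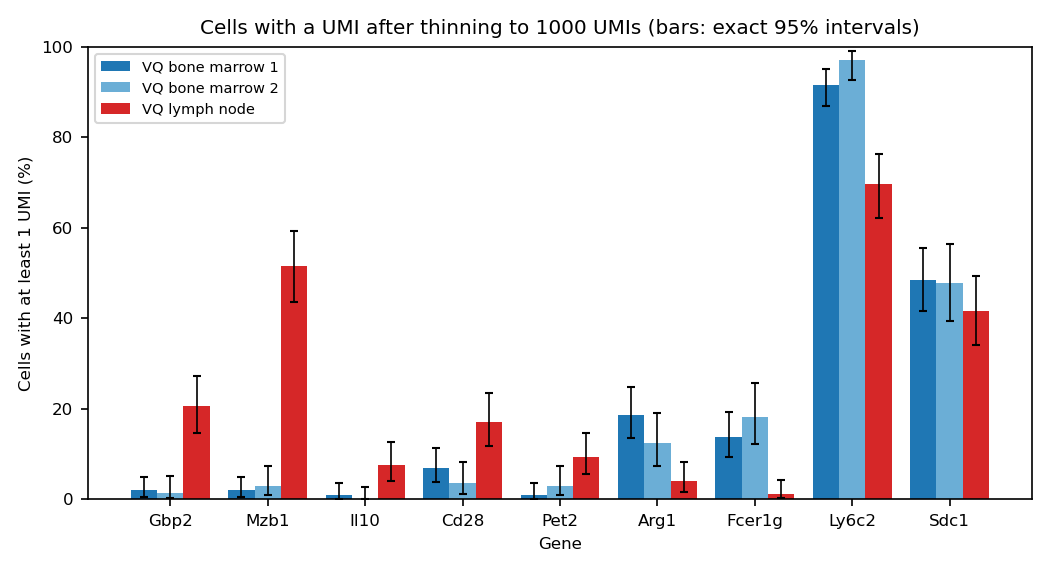
Share of cells (%) with at least 1 UMI of each gene in the 3 libraries after every cell was thinned to 1000 UMIs; bars stand for libraries and error bars for exact 95% Clopper-Pearson intervals, which cover counting error only. The intervals of Mzb1 and Gbp2 in the lymph node lie above both marrow intervals, those of Ly6c2 and Fcer1g lie below both, and those of Sdc1 overlap.

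Thinning each cell to 1000 UMIs removes the difference in depth, which ran from a median of 3062 to 4968. It also left only 204000 and 138000 UMIs in VQ_BM 1 and 2 and 171000 in VQ_LN. Fewer genes can be called from fewer UMIs, so a call lost with thinned cells cannot be assigned to depth. After thinning, Mzb1 was found in 1.96% (0.537 to 4.94) and 2.90% (0.795 to 7.26) of bone marrow cells and in 51.5% (43.7 to 59.2) of lymph node cells. Gbp2 was found in 1.96%, 1.45% and 20.5% (14.7 to 27.3), and Il10 in 0.98%, 0% (up to 2.64%) and 7.60% (4.11 to 12.6). Arg1 was found in 18.6% (13.5 to 24.7), 12.3% (7.34 to 19.0) and 4.09% (1.66 to 8.25), so that its second marrow interval overlaps that of the node slightly. Within the lymph node library the markers overlapped in part. Of 171 cells before thinning, 55 had a UMI of both Mzb1 and Gbp2, 65 of Mzb1 only, 22 of Gbp2 only and 29 of neither. These counts depend on each cell's depth and are a description.

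Every GBP gene that passed the filter on low counts was called higher in the lymph node: 6 of the 11 listed, the marker Gbp2 included, against a background of 1.7%. Of these 6, 3 passed the filter only through the lymph node library, so the count describes these genes and supports nothing further. Gbp7 stood at 79.4 and 87.3 CPM in bone marrow and 503 CPM in the lymph node (log2 fold change 2.61, SE 0.20, adjusted p = 1.89e-36). Gbp4 stood at 6.78 and 9.44 CPM against 156 CPM (log2 4.34, SE 0.36). Gbp5, which is also known for assembling inflammasomes, stood at 3.87 and 11.8 CPM against 102 CPM. Both marrow libraries lay below the node for each, which holds for every gene called higher. The log2 fold change of Gbp5 was 3.99, or 3.09 against the second marrow library alone and 4.67 against the first alone. Gbp3 rose from 165 and 196 CPM to 597 CPM (log2 1.75), and Gbp9 from 16.5 and 11.8 CPM to 51.7 CPM (log2 1.77). Of the other members, Gbp8 had 3, 1 and 4 UMIs and was not tested, and Gbp2b, Gbp6, Gbp10 and Gbp11 had none in the 3 libraries. Summed over the 11 genes, the family stood at 284 and 330 CPM in bone marrow, 1656 CPM in the lymph node and 114 CPM in the wild-type reference. Under the preset coefficient of 0.3 the calls of 4 of the 6 were kept, and under DESeq2 those of 5.

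The IRG genes were higher as well. All 8 tested genes of the 11 listed were called higher, against 1.7% of all genes, but 4 of them had passed the filter only through the lymph node library, so this count too supports nothing further. Igtp (also called Irgm3, a regulatory member) stood at 94.9 and 70.8 CPM in bone marrow and 477 CPM in the lymph node (log2 2.46, SE 0.20, adjusted p = 1.17e-32). Irgm1, another regulatory member, stood at 63.9 and 47.2 CPM against 275 CPM (log2 2.24). Ifi47 stood at 24.2 and 35.4 CPM against 249 CPM (log2 3.16, SE 0.25). The node was far above both marrow libraries for each of these 3 genes. Tgtp1, Tgtp2 and Iigp1 had very few UMIs in bone marrow. Tgtp1 had 1, 0 and 37 UMIs, a ratio of 69.6 with a counting interval of 11.7 to 2823, and Tgtp2 had 1, 0 and 27. The 2 genes are near copies, and how reads were divided between them is not given in the sources used here. Iigp1 had 2, 0 and 36 UMIs, of which 16 came from 1 lymph node cell. Gm12250 stood at 13.6 and 7.08 CPM against 84.0 CPM (log2 2.84, or 3.53 against the second marrow library alone), and Irgm2 at 6.78 and 4.72 CPM against 32.3 CPM (log2 2.36). Gm4951 had 1 UMI in all, in the lymph node, and the other 2 listed genes had none. The summed family stood at 207 and 165 CPM in bone marrow, 1248 CPM in the lymph node and 192 CPM in the wild-type reference. Under the preset coefficient 7 of the 8 calls were kept. DESeq2 kept 3, those of Igtp, Irgm1 and Ifi47, lost those of Tgtp1, Iigp1 and Gm12250, and gave no adjusted p for Irgm2 and Tgtp2. With thinned cells the same 3 were kept, Gm12250 was lost and the other 4 could not be tested. Igtp and Irgm2 overlap in the annotation on the same strand, as do Gbp4 and Gbp9, so the division of reads within each pair is uncertain.

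**Figure D3:**
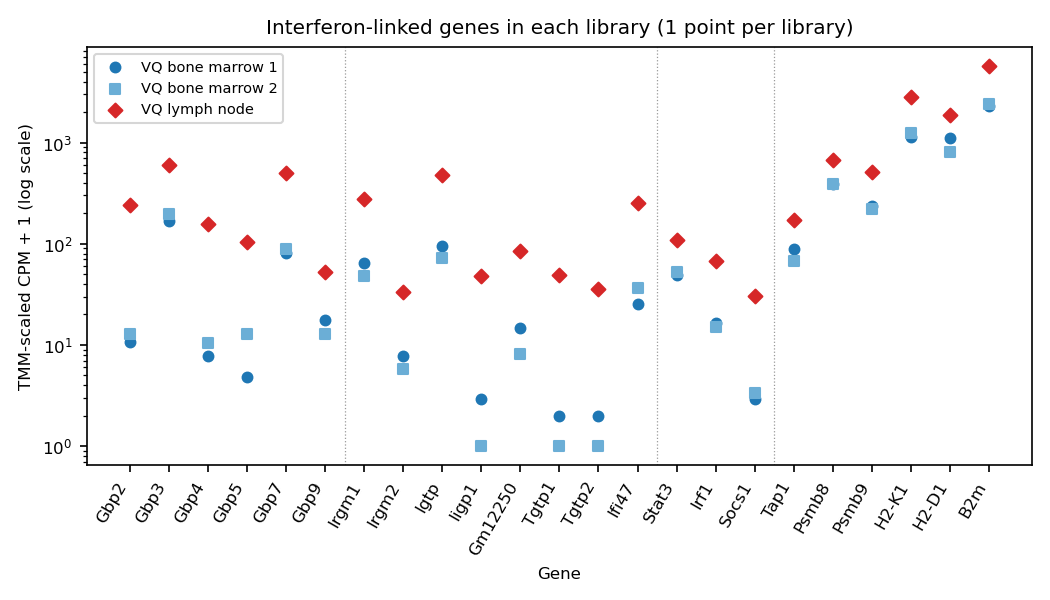
TMM-scaled CPM plus 1 on a log scale for GBP genes, IRG genes, signalling genes and antigen presentation genes (separated by dotted lines), with 1 point per library. All 23 genes shown were picked from those called higher. The signalling genes are the 3 called of 16 tested, and the antigen presentation genes come from the 7 called of 17 tested. The lymph node point lies above both bone marrow points for each, as for every gene called higher. The log2 fold change was 5.81 for Tgtp1 and 0.77 for Psmb8.

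Most lymph node cells held at least 1 GTPase UMI. With every cell thinned to 1000 UMIs, at least 1 UMI of the 22 listed GBP and IRG genes was found in 78 of 204 cells of the first marrow library (38.2%, 31.5 to 45.3), 40 cells of the second (29.0%, 21.6 to 37.3) and 148 of 171 lymph node cells (86.5%, 80.5 to 91.3). The node's interval lies above both marrow intervals. Of the 148 node cells, 42 held exactly 1 such UMI. No cell type that lacks these genes was at hand to give a background share, and the part of free RNA was not tested. Without thinning, the shares were 77.9%, 65.9% and 98.2%. At least 5 such UMIs were found in 1.47% (0.304 to 4.24) and 0% (up to 2.64%) of marrow cells and in 41 of 171 node cells (17.8 to 31.1%). The mean was 0.544 and 0.435 GTPase UMIs per 1000 in bone marrow and 2.91 in the lymph node, where the highest cell had 15.

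**Figure D4:**
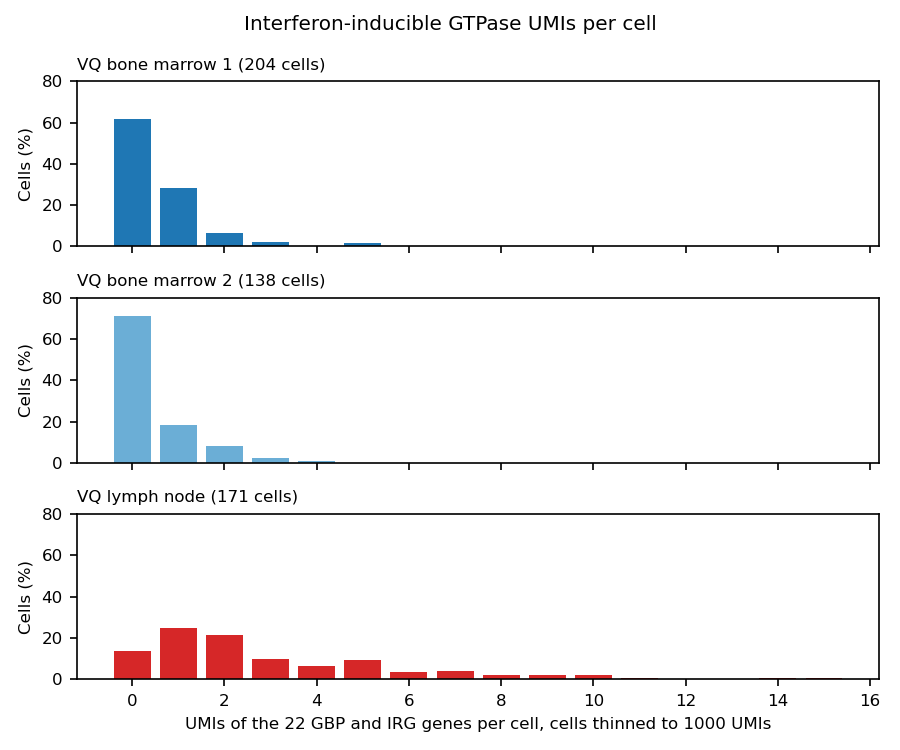
Distribution of UMIs of the 22 GBP and IRG genes per cell after thinning to 1000 UMIs, as a percentage of the cells of each library. In bone marrow 0 is the most frequent value and the highest are 5 and 4, while lymph node cells reach 15.

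Of the listed interferon receptor, STAT and IRF genes, 3 of 16 tested were called higher and 0 lower, against 1.7% and 1.01% of all genes. At an unadjusted p under 0.05, 1 was lower, and DESeq2 called 0. The median log2 fold change was 0.20 over the list and -0.01 over all genes tested. Whether an interferon acted on the lymph node cells was not tested. Irf1 stood at 15.5 and 14.2 CPM in bone marrow and 65.9 CPM in the lymph node (log2 2.12, SE 0.39, adjusted p = 8.56e-06). Socs1, the inhibitor that feeds back on the kinases of the interferon-gamma receptor, had 2, 1 and 23 UMIs. It was the 1 gene of the 16 that passed the filter only through the lymph node library, so its call supports nothing further. Stat3, which transmits interleukin 6 and interleukin 10 signals, stood at 48.4 and 51.9 CPM against 109 CPM (log2 1.13). In each of the 3 the marrow libraries lay close together. They lay below the node, as for every gene called higher. Ifngr1, a chain of the interferon-gamma receptor, was not called, at 37.8 and 37.8 CPM in bone marrow and 12.9 CPM in the lymph node (log2 -1.54, adjusted p = 0.0614). The calls of Irf1 and Stat3 were lost under both DESeq2 and the preset coefficient. With cells thinned to 1000 UMIs the list's median became -0.62.

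Of 43 other interferon-induced genes listed, 20 were tested and 8 were called higher (1.7% over all genes), with 0 lower at either threshold and a median log2 fold change of 0.86; 3 of the 20 passed the filter only through the lymph node. Ly6a (the surface antigen Sca-1) stood at 22.3 and 21.2 CPM against 84.0 CPM (log2 1.93, SE 0.34), Zbp1, a sensor of nucleic acids, at 28.1 and 26.0 CPM against 82.7 CPM (log2 1.59), and Bst2 (tetherin) at 200 and 234 CPM against 488 CPM (log2 1.19). Trim30a stood at 24.2 and 23.6 CPM against 64.6 CPM (log2 1.42). Both marrow libraries lay below the node in each of them, as for every gene called higher. None of the 8 genes was called under DESeq2 or under the preset coefficient. With thinned cells 2 genes of the list were called, Bst2 among them. The calls of Ly6a (log2 0.45) and Zbp1 (log2 1.12) were lost there, and Trim30a could not be tested. That of Ly6a was also lost when no limit on Jchain was set (log2 0.94). Ly6a stood at 3463 CPM in the wild-type reference.

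In MHC class I presentation 7 of 17 tested genes were called higher, against 1.7% of all genes, and 0 lower (also 0 at an unadjusted p under 0.05), with a median log2 fold change of 0.77. B2m, the light chain shared by class I molecules, stood at 2272 and 2377 CPM in bone marrow and 5702 CPM in the lymph node (log2 1.30, SE 0.12, adjusted p = 2.11e-23), against 23158 CPM in the wild-type reference. H2-K1, a classical heavy chain, stood at 1142 and 1234 CPM against 2823 CPM (log2 1.25, SE 0.13). Psmb9, an immunoproteasome subunit, stood at 235 and 220 CPM against 508 CPM (log2 1.15). The node was more than 2-fold above each marrow library for these 3 genes. H2-Q4, a non-classical heavy chain with close paralogs, had 5, 7 and 30 UMIs (log2 2.19, or 1.22 and 2.97 against each marrow library alone). Tap1, the peptide transporter, and Psmb8 and H2-D1 were also called. Of the 7, DESeq2 kept 2 and the preset coefficient none, while 4 remained with thinned cells. In MHC class II 0 of 5 tested genes were called by edgeR or DESeq2, nor at an unadjusted p under 0.05, and Cd74 stood at 89.1, 106 and 107 CPM, with 2340 CPM in the wild-type reference.

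The plasma cell identity genes moved in both directions, with 4 of 19 tested called higher, the marker Mzb1 among them, and 2 lower, against 1.7% and 1.01% of all genes. Their median log2 fold change was 0.04. Cd28, a costimulatory receptor that plasma cells also carry, stood at 64.9 and 59.0 CPM in bone marrow and 195 CPM in the lymph node (log2 1.63, SE 0.23, adjusted p = 4.31e-10). Fkbp11, a folding enzyme of the secretory pathway, rose from 631 and 784 CPM to 1072 CPM (log2 0.61), and Derl3, which helps export misfolded proteins from the ER, from 393 and 456 CPM to 636 CPM (log2 0.60). Ly6c2, a surface antigen of plasma cells and monocytes, fell from 6398 and 7914 CPM to 2982 CPM (log2 -1.26, SE 0.13, adjusted p = 3.87e-20). After thinning, a Ly6c2 UMI was found in 91.7% and 97.1% of marrow cells and 69.6% of node cells. In the lymph node 93 of 171 cells had UMIs of both Ly6c2 and Mzb1, 50 of Ly6c2 only, 27 of Mzb1 only and 1 of neither. Irf4, Xbp1, Prdm1 and Tnfrsf17 were not called: Xbp1, the master factor of the secretory programme, stood at 4210 and 4761 CPM against 3649 CPM (log2 -0.30, adjusted p = 0.269). The calls of Cd28, Fkbp11 and Derl3 were lost under DESeq2 and the preset coefficient, and that of Ly6c2 under the preset coefficient. Those of Fkbp11 and Derl3 were also lost with thinned cells, while Cd28 and Ly6c2 were still called there. Prg2 was the other lower gene, with 261, 1 and 0 UMIs, and 252 of the 261 lay in 1 cell of 2224 UMIs that had 0 UMIs of Sdc1 and of Mzb1.

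In the ER list 5 of 49 tested genes were called higher and 1 lower, against 1.7% and 1.01% of all genes, and the median log2 fold change was 0.18. Sdf2l1 and Creld2, both known to be induced by unfolded proteins, stood at 286 and 335 CPM against 689 CPM (log2 1.17, SE 0.16) and at 626 and 741 CPM against 1469 CPM (log2 1.11, SE 0.14). Hspa5 (BiP), the main ER chaperone, stood at 4235 and 4105 CPM against 6002 CPM (log2 0.52), and Pdia4, a disulfide isomerase, at 423 and 446 CPM against 651 CPM (log2 0.59). Edem1, which hands misfolded glycoproteins to degradation, was lower, at 4021 and 4404 CPM against 3093 CPM (log2 -0.44, adjusted p = 0.0239). The marrow pair lay on 1 side of the node for each of the 5 genes, as for every called gene. Derl3, given above, was the other higher gene of the list. DESeq2 kept 2 of the 5 higher calls, those of Sdf2l1 and Creld2, and not that of Edem1. The preset coefficient kept none of the list's 6. With thinned cells the calls of Derl3, Pdia4 and Edem1 were lost, and that of Edem1 also when no limit on Jchain was set. Kdelr3, a receptor that returns chaperones to the ER, is not on this list and had 9, 3 and 41 UMIs (log2 2.66, SE 0.48). It passed the filter on low counts only through the lymph node library, so its values are a description. Its call was lost under DESeq2.

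The list of immune regulatory genes holds the markers Il10 and Arg1, described above, and 8 other genes that could be tested. Ctla4, an inhibitory receptor better known from T cells, had 1, 0 and 17 UMIs, spread over 14 lymph node cells, a ratio of 32.0 (5.01 to 1337). It passed the filter only through the lymph node library, so it is given as a description with no test. Markers of T and NK cells summed to 104 and 28.3 CPM in bone marrow and 74.9 CPM in the lymph node. In the lymph node 13 of the 16 were at 0, including Cd3d, Cd3e, Cd3g, Lck and Thy1, and the other 3 were Gzma, Cd2 and Cd8b1. Gzma, a granule protease, was called higher, at 18.4 and 11.8 CPM against 46.5 CPM (adjusted p = 0.0219), but not under DESeq2 or the preset coefficient, nor once cells with at least 2 markers of another cell type were left out (log2 1.29). Cd274, the gene of PD-L1, stood at 15.5 and 30.7 CPM against 40.0 CPM and was not called.

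Of the homing and adhesion genes, 1 of 16 tested was called higher and 3 lower, against 1.7% and 1.01% of all genes. Cd24a, a surface glycoprotein, fell from 1795 and 1980 CPM to 869 CPM (log2 -1.12, SE 0.15, adjusted p = 6.14e-12). Klf2, a transcription factor known to control the exit receptor S1pr1 and the homing of plasma cells, fell from 186 and 236 CPM to 76.2 CPM (log2 -1.43, SE 0.24). Icam1, an adhesion ligand, rose from 21.3 and 26.0 CPM to 55.5 CPM (log2 1.28). The marrow libraries lay on 1 side of the node in all 3, as for every called gene. Cxcr4, the receptor that holds plasma cells in bone marrow, was not called, at 69.7 and 80.3 CPM against 71.1 CPM. Itgb2 was the other lower gene (log2 -2.18). Its call was lost under 5 alternatives: DESeq2, the preset coefficient, a minimum of 2000 UMIs, thinning, and leaving out cells with markers of other types. Those of Klf2 and Icam1 were lost under DESeq2, the preset coefficient and thinning. That of Cd24a was lost under the preset coefficient. Of 16 cytokine receptor and signalling genes tested, Lifr, Pim1 and Bcl3 were called higher and Il2rg lower, against 1.7% and 1.01% of all genes. Lifr, the receptor for leukaemia inhibitory factor, stood at 16.5 and 18.9 CPM against 71.1 CPM (log2 2.03, SE 0.37), and Bcl3, an atypical I-kappa-B protein that passed the filter only through the node, had 8, 2 and 25 UMIs. The call of Lifr was lost under DESeq2, the preset coefficient and thinning, that of Bcl3 under the preset coefficient (DESeq2 gave it no adjusted p, and it could not be tested with thinned cells), and those of Pim1 and Il2rg under 7 and 5 alternatives.

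Some of the largest differences fell outside these groups. Pet2, first described as a plasmacytoma transcript, stood at 6.78 and 18.9 CPM in bone marrow and 132 CPM in the lymph node (log2 3.63, SE 0.35, adjusted p = 5.85e-22; 2.79 and 4.25 against each marrow library alone). Cyct, the testis form of cytochrome c, had 2, 0 and 51 UMIs, and the 51 were spread over 28 cells (ratio 48.0, 12.6 to 407). Cyct passed the filter on low counts only through the lymph node library, so its values are a description. Slc16a3, a lactate transporter, had 9, 2 and 67 UMIs (log2 3.50, SE 0.42; 4.14 against the second marrow library alone). None of the 3 had a UMI in the wild-type reference. Slc16a3 was 1 of 4 genes called higher among 23 tested for glycolysis, the others being Aldoa (log2 0.76), Pkm (log2 0.57) and Mif (log2 0.56), and 0 were lower at either threshold. Of all genes 1.7% were called higher, and Slc16a3 passed the filter only through the lymph node library. Calls for those 3 were lost under DESeq2, the preset coefficient and thinning, and that of Slc16a3 under DESeq2 and thinning. On the lower side, Fcer1g, the signalling chain of Fc receptors, stood at 191 and 161 CPM in bone marrow and 12.9 CPM in the lymph node (log2 -3.77, SE 0.35, adjusted p = 2.33e-24). Its UMIs came from 86 and 54 marrow cells, with at most 10 in 1 cell, and from 8 node cells. Among Ly6 family and germline or lens genes, Ly6a, Ly6k and Ly6e were higher and Ly6c2, Oaf and Fam162b lower, of 13 tested, against 1.7% and 1.01% of all genes. The calls of Ly6k and Ly6e were lost under DESeq2 and the preset coefficient, and those of Oaf and Fam162b under these and thinning. Oaf stood at 259 and 186 CPM against 84.0 CPM (log2 -1.45).

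The growth programmes were read against the 2.71% of all genes called in either direction. Of 40 MYC and ribosome biogenesis genes, 31 mitosis genes and 62 oxidative phosphorylation genes tested, 0 were called in either direction by edgeR, with medians of 0.15, -0.18 and 0.10 on the log2 scale. DESeq2 also called 0 in each, and at an unadjusted p under 0.05 they held 1, 3 and 10 genes. Of 28 S phase genes 1 was lower, Gins2, at 66.8 and 61.4 CPM against 28.4 CPM (log2 -1.19, adjusted p = 0.0341), and its call was lost under DESeq2, under the preset coefficient and without a filter on low counts. Among RAS and MAPK output genes, Etv5, a transcription factor induced by this pathway, fell from 116 and 111 CPM to 55.5 CPM (log2 -1.04), and Dusp1, a MAP kinase phosphatase, from 89.1 and 73.2 CPM to 29.7 CPM (log2 -1.48), of 15 tested. The proapoptotic gene Pmaip1 fell from 146 and 172 CPM to 85.3 CPM (log2 -0.87), 1 of 17 survival genes tested. All 3 calls were lost under DESeq2, the preset coefficient and thinning. Immediate early genes split: Fos (log2 -0.93), Fosb (log2 -1.69) and Jun (log2 -1.13) were lower and Junb (log2 1.40) higher, while the heat shock genes Hspa1b, Hsph1 and Hspa8 were higher, of 19 tested on the list, against 1.7% higher and 1.01% lower over all genes. Jun stood at 398 and 479 CPM against 198 CPM, and Junb at 76.5 and 61.4 CPM against 189 CPM. None of these calls was kept under the preset coefficient of 0.3 or under DESeq2, which gave Hspa1b no adjusted p. With thinned cells those of Jun, Junb and Hsph1 were lost. Fos and Hspa8 were still called there, and Fosb and Hspa1b could not be tested. The call of Fosb was also lost at a minimum of 2000 UMIs. That of Hspa1b was lost with library totals alone, at 500 UMIs, with Jchain under 2% and without cells with markers of other types. Of the 19 tested, 1 passed the filter only through the lymph node and 1 only through bone marrow. In the lists of B cell genes, NF-kB, stress response and cholesterol synthesis 0 of 3, 11, 26 and 21 tested genes were called by edgeR or DESeq2, with 2, 1, 2 and 2 at an unadjusted p under 0.05.

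**Figure D5:**
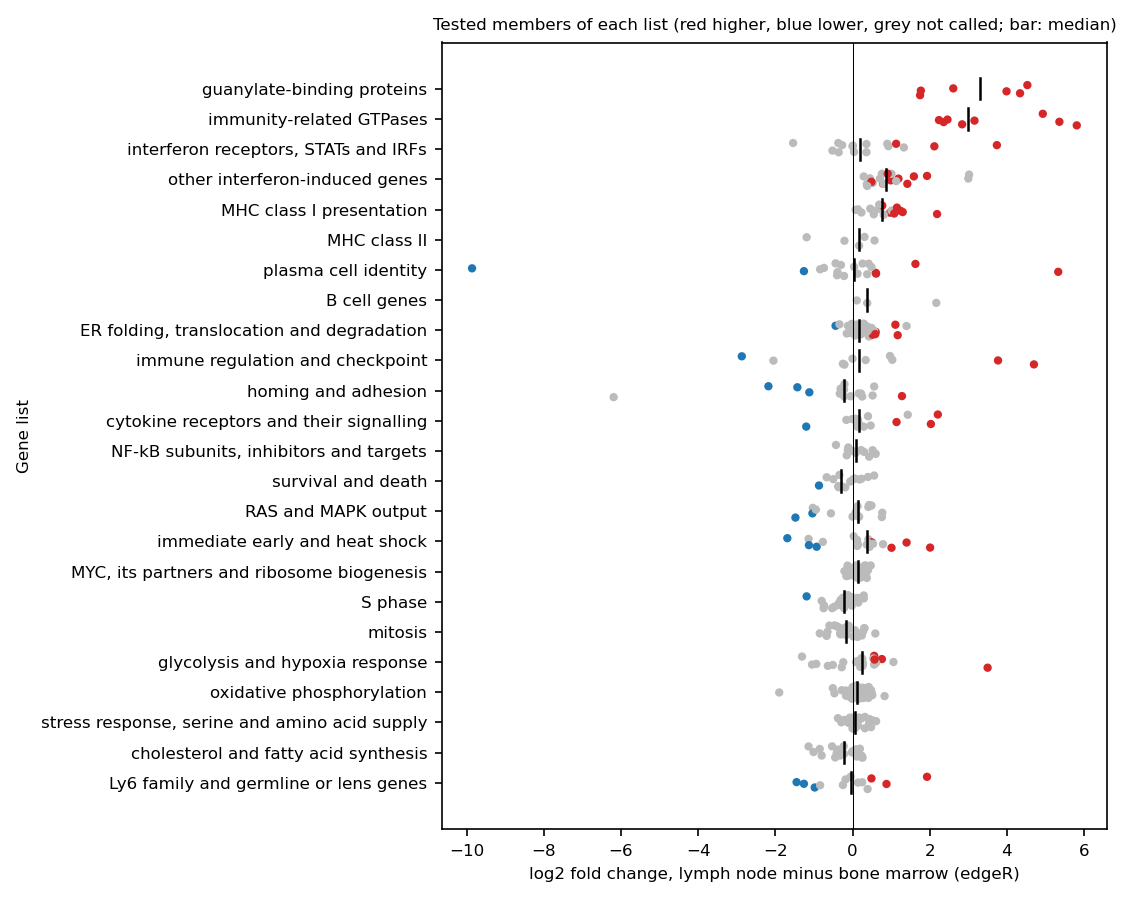
Log2 fold change (edgeR, lymph node minus bone marrow) of every tested member of each gene list, with the list's median as a black bar. The medians of the GBP and IRG lists lie at 3.30 and 3.00, while those of the growth lists lie near 0; the points near -10 and -6 are genes with 0 UMIs in the lymph node library, whose fitted value is no measured fold.

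Part of the lower side came from very few cells. S100a9, S100a8, Camp, Ngp and Lcn2, granule genes of neutrophils, had 0 UMIs in the lymph node library. S100a9 had 277 and 358 UMIs in bone marrow and was at least 112-fold lower in the lymph node, counting its floor as 3 UMIs over the library (at least 69.2-fold against the first marrow library alone and 218-fold against the second alone). Camp had 146 and 209 UMIs (at least 62.9-fold lower, or 36.5 and 127 against each alone). The 12 neutrophil markers summed to 691 and 2549 CPM in bone marrow and 15.5 CPM in the lymph node, where 10 of the 12 were at 0. Of their 714 UMIs in the first marrow library 665 lay in 1 cell, and of the 1080 in the second 638 and 435 lay in 2 cells. At least 2 mature B cell markers were found in 31, 11 and 14 of the kept cells. Neither these markers nor dendritic cell markers were used to leave cells out. Once cells with at least 2 markers of another cell type were left out, 186, 135 and 168 cells remained. Then 141 genes were called higher (1.69%) and 69 lower (0.826%), and 193 calls were shared with the full set. The neutrophil genes named here then fell below the filter on low counts, as did Prg2, Anxa1, Lyz2 and Chil3. S100a6 lost its call (log2 -1.93). Fcer1g was still called lower. Macrophage and monocyte markers summed to 180 and 151 CPM in bone marrow and 102 CPM in the lymph node, and stromal and endothelial markers to 12.6, 7.08 and 6.46 CPM. The part of these cells in the remaining differences was not tested. In sums over cells, fewer cells with a transcript and fewer transcripts per cell cannot be told apart.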

How the data were processed

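The authors deposited 1 table per library of unscaled UMI counts, cells by 24421 genes, past a knee filter on barcodes. Cells were isolated on the ddSEQ instrument with a SureCell 3′ library kit, per the labels' protocols, and the submitters' processing notes name build mm10. The aligner and the use of strand are not given in the sources used here. Counts of kept cells were summed per library and tested with edgeR 4.0.16 in R 4.3.3 (TMM scaling, filterByExpr, quasi-likelihood F test, Benjamini-Hochberg over all 8475 genes tested). The fit has 1 residual degree of freedom, so the spread comes from the VQ_BM pair alone and may be technical. The prior degrees of freedom were infinite, so each gene took the spread of the trend over all genes. A p-value or SE therefore does not measure that gene's own spread between the marrow libraries. The pair's counts were overdispersed against each other (chi-square 1.59 times its degrees of freedom over 8962 genes), so it was kept as 2 libraries. The SE of a log2 fold change was computed back from the F statistic. DESeq2 1.42.0 was an alternative. Counts were also simulated for this comparison over 8475 genes. There, 72 of 100 genes changed 2-fold and 99 of 100 changed 4-fold were called, with 5 false calls among 8275. The spread of the single lymph node library had to be assumed in the simulation, so these figures cannot test that assumption. They are not split by abundance and give no rate for genes with few UMIs. Intervals are exact, at 95%, and cover counting error only. Ratios use UMI rates over the TMM-scaled library totals. Gene positions are from GENCODE vM21.

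The members, gene lists and tests were chosen with earlier results of these data known. Named genes were the 4 markers, the 12 largest called changes in each direction with at least 50 CPM in the higher group, up to 4 called members per list and direction (or the 2 most abundant where none was called), and 5 label checks. Gbp3, Gbp9, Igtp, Irgm1, Irgm2, Ifngr1, Cxcr4, Cd274, Xbp1, Hspa5 and the later genes of the closing section were named after their values were seen. Cells were thinned to 1000 UMIs with a fixed seed. Alternatives changed the scaling, the filter, the spread, the limits on UMIs and Jchain, the depth, the cells and the libraries. 1 gene was left out of the lists and is not reported here.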

Additional observations from a re-analysis of the deposited data

How the results depend on the processing

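The 144 higher and 86 lower calls fell to 19 and 8 with DESeq2, which gave an adjusted p for 7220 genes, to 25 and 17 with a preset biological coefficient of variation of 0.3, and to 31 and 31 with each cell thinned to 1000 UMIs, where 4329 genes could be tested. All 27 DESeq2 calls were among the 230, as were 41 of those with the preset coefficient and 58 with thinned cells. The other 8 alternatives with a test gave 121 to 145 higher and 69 to 90 lower calls, and in none of the 11 did a gene called by the main test change direction where it had a value. Leaving out a bone marrow library leaves no residual degree of freedom and hence no count of calls. No paired analysis was possible, because there is a single lymph node library and the animal of each library is not given in the sources used here. A single lymph node library and the depth of the second bone marrow library limit what can be called among genes with few UMIs.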

Other observations

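A few further genes, chosen after their values were seen, differed between the tissues. The metallothioneins Mt2 and Mt1, which bind zinc and copper, stood at 552 and 517 CPM in bone marrow against 1400 CPM in the lymph node (Mt2, log2 1.38) and at 1205 and 1008 CPM against 1785 CPM (Mt1, log2 0.68). Npc2, which carries cholesterol out of lysosomes, stood at 746 and 725 CPM against 1325 CPM (log2 0.85), and the lysosomal enzymes Lipa and Lgmn were higher as well (log2 1.27 and 1.01). Gimap4, a GTPase of lymphocytes, stood at 143 and 127 CPM against 368 CPM (log2 1.42). On the lower side, Abcd2, a peroxisomal transporter of fatty acids, stood at 147 and 142 CPM against 36.2 CPM, and the cytoskeletal genes Vim and Tmsb4x were lower (log2 -1.14 and -1.09). All 9 genes were still called once cells with at least 2 markers of another cell type were left out. None was called with a preset coefficient of variation of 0.3, and DESeq2 called Mt2, Npc2, Gimap4 and Tmsb4x. With thinned cells Lipa, Lgmn and Gimap4 were not called, and the others were.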
